A study of Homo sapiens with 3 samples.

Results

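UAA stop codons with a pyrimidine as the next base end 612 of the 5438 transcripts compared in HEK293T cells, 318 as UAAC and 294 as UAAU. A transcript was a member when it was present in the tables of all 3 libraries and passed a minimum mean of reads in the coding sequence (CDS), with at least 1 further in-frame stop codon in its 3′UTR, a readthrough region of at least 18 nt, UAA as its stop codon and C or U after it. The minimum lay between the mean of 127.7 reads of GLRX, the nearest UAA and pyrimidine transcript outside the rule, and that of 130.3 reads of DHRS13, the member with the fewest. The rule used no measured readthrough value. HEK293T is an established human embryonic kidney line. Ribosome profiling, the sequencing of mRNA fragments that ribosomes shield from RNase, was done on cells without drug (2 libraries, called Untreated A and Untreated B) and on cells kept with the aminoglycoside G418 at 500 µg/mL for 24 h (1 library, G418 A). All 3 libraries came from lysates made on ice with cycloheximide.

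Translation ends when a stop codon in the ribosomal A site is bound by the release factor eRF1 in complex with eRF3. A near-cognate tRNA can take its place, and the ribosome then goes on in frame until the next stop codon, an event called readthrough. UAA is known as the tightest of the stop codons, and the bases on either side of the stop change how well it is read. G418 binds the decoding centre of the ribosome and lowers its accuracy, which is why aminoglycosides are studied for diseases caused by premature stop codons.

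Readthrough was measured by the ribosome readthrough score (RRTS). The RRTS is the density of fragments between the normal termination codon (NTC) and the next in-frame stop codon (the 3′TC), divided by the density on the CDS, and it is given here in percent. For a pooled RRTS the readthrough reads of a group of transcripts were summed and divided by the sum expected there at each transcript's own CDS density. The tables' scale corresponded to 5857230 reads for Untreated A, 9477972 for Untreated B and 7216039 for G418 A. The members held 405, 487 and 6653 readthrough reads (reads between the NTC and the 3′TC, whatever their origin) in these libraries. Intervals of pooled and single values are exact Poisson 95% intervals, which cover counting error only. There was 1 G418 library, so no test was made between the conditions, and values with ± are the mean and SD of the 2 untreated libraries. Of the 5 markers chosen for the line, 4 (KRT8, KRT18, VIM and EPCAM) were listed in every library at 191 to 2163 RPKM (reads per kilobase of sequence, scaled to the size of the library), and CDH2 was not listed. Of 6 markers of other cell types, only COL1A1 was listed, at 7.98 to 10.7 RPKM.

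The sequences around the stop codon are shown for the members that the later results turn on. Each is 30 bases of mRNA, with the stop codon and the base after it in capitals, from the GENCODE release 44 transcript. Coordinates give the stop codon in hg38. Members were matched to this release by transcript number, stop signal and distance to the 3′TC (596 of 612 members). The first set holds the UAAC members with the highest RRTS in G418 among those with at least 50 readthrough reads, except HIST1H2AG, which was not matched to a transcript of this release.
TPT1 (chr13:45337386-45337388, minus strand): gaaauggaaaaauguUAACaaauguggcaa
RPL18 (chr19:48615372-48615374, minus strand): cgaggcuacaaaaacUAACccuggauccua
MTHFD2 (chr2:74214240-74214242, plus strand): gggguagccacuaauUAACuacugugucuu
TMEM106C (chr12:47968227-47968229, plus strand): aauuccacagcuauuUAACaacugcuauug
POLR2C (chr16:57471117-57471119, plus strand): gugcuaaccauaaauUAACugcagcuugcc
Of these 5 UAAC members, 4 had U just before the stop codon (position -1), and none had G at position +5, the base after the capitals.

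The second set holds the UAAU members chosen in the same way.
TUBA1B (chr12:49127958-49127960, minus strand): gaaggagaggaauacUAAUuauccauuccu
CBX3 (chr7:26212206-26212208, plus strand): gaagaugaagcucaaUAAUuguucacauug
PPIF (chr10:79353840-79353842, plus strand): uguggccaguugagcUAAUcuguggccagg
RPL3 (chr22:39312940-39312942, minus strand): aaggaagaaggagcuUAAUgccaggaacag
DDX21 (chr10:68982810-68982812, plus strand): aaagcauuuggucaaUAAUuagaaauagaa
UBB (chr17:16382595-16382597, plus strand): cugagggguggcuguUAAUucuucagucau
Of these 6 UAAU members, 4 had U at position +5. The counts of bases in both sets describe members chosen by their RRTS and were given no test.

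The third set holds members whose RRTS in G418 stayed below 2% although many reads were expected, and EIF5A, which is shown beside EIF5AL1.
RPL37A (chr2:216578931-216578933, plus strand): uacaacagaauggaaUAACagcaaacaaca
EIF5A (chr17:7311638-7311640, plus strand): aaggccauggcaaaaUAACuggcucccagg
EIF5AL1 (chr10:79513112-79513114, plus strand): aaggccauggcaaaaUAACuggcucccaag
RPS3 (chr11:75404863-75404865, plus strand): ccaguccccacagcaUAACagguaugucug
EEF1E1 (chr6:8073475-8073477, minus strand): acagagguagggaacUAACccaacaucaua
RPS24 (chr10:78055008-78055010, plus strand): ucuggucugggccacUAAUgucacugccau
ATP5F1E (chr20:59030306-59030308, minus strand): aaaguaaagaaggaaUAAUcuguuugggaa
NELFCD (chr20:58994674-58994676, plus strand): uucaucauggugaacUAAUuuagagcaucc
ELOB (chr16:2771472-2771474, minus strand): ccacgcugggggcugUAAUcacggagggaa
The stop codon lay in the last exon of every transcript shown except ATP5F1E (exon 2 of 3) and EIF5A (exon 5 of 6), and in 94.6% of all matched members.

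The first question was how much ribosome density lay past these stop codons with and without the drug. The pooled RRTS of all members was 16.9% (16.5 to 17.3) under G418, against 1.27% (1.15 to 1.40) and 0.984% (0.899 to 1.08) in Untreated A and B. Set against the mean without drug of 1.13% ± 0.205 (SD, n = 2), the G418 value was 14.95-fold higher, while the untreated libraries differed from each other by 1.29-fold. The median RRTS of the members was 0 in both untreated libraries and 15.02% in G418 A, with quartiles of 0 and 41.6%. In G418 A, 120 members had an RRTS of at least 50%, against 21.7% of all transcripts (19.6% of members).

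UAAC transcripts had a pooled RRTS of 1.19% (1.03 to 1.36), 1.05% (0.933 to 1.18) and 20.2% (19.6 to 20.8) in Untreated A, Untreated B and G418 A. UAAU transcripts had 1.37% (1.19 to 1.58), 0.905% (0.786 to 1.04) and 13.0% (12.5 to 13.5). The untreated libraries put the signals in opposite orders, whereas UAAC was the higher in G418. The median RRTS in G418 A was 18.3% for UAAC and 11.6% for UAAU.

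In G418 A a UAAC transcript had the higher RRTS of a UAAC and UAAU pair with a probability of 0.575 (two-sided Mann-Whitney permutation test over transcripts, adjusted p = 0.00339 over 3 libraries). By the same permutation test the probability was 0.470 in Untreated A (adjusted p = 0.122) and 0.508 in Untreated B (adjusted p = 0.618). The permutation test restricted to transcripts averaging 500 CDS reads or more gave 0.577 in G418 A with an adjusted p of 0.0743. A quasi-Poisson fit of the reads gave a UAAC over UAAU ratio of 1.56 (95% interval over transcripts 0.914 to 2.66) with an adjusted p of 0.308. The order of the signals in G418 therefore held in the rank test of all members and did not pass in either of these alternatives.

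**Figure D1:**
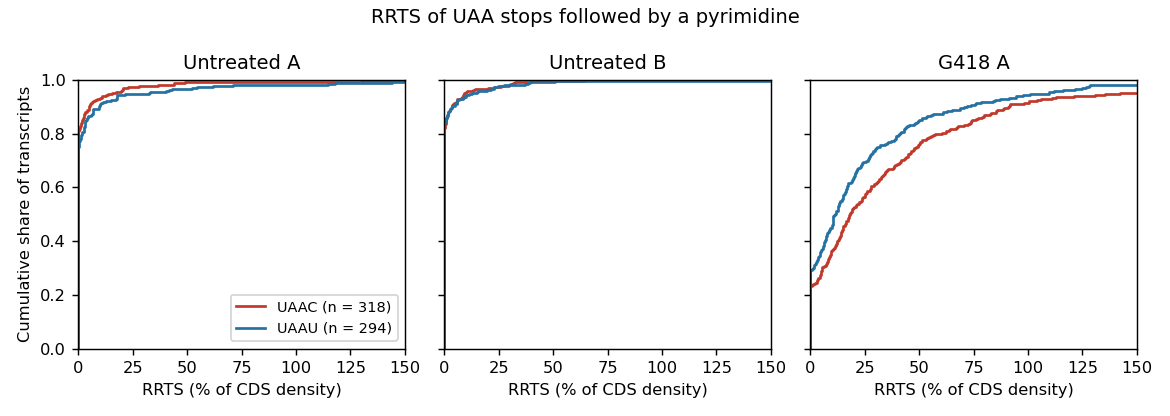
Cumulative share of the 318 UAAC and 294 UAAU transcripts (vertical axis) at or below each RRTS in percent of the CDS density (horizontal axis, drawn to 150%), in Untreated A, Untreated B and G418 A. In G418 A the UAAU curve lies above the UAAC curve, with medians of 11.6% and 18.3%.

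A readthrough read was seen on 136 of 612 members in Untreated A (22.2%, Wilson 95% interval 19.1 to 25.7), beside 23.8% of all transcripts. In Untreated B it was seen on 104 members (17.0%, 14.2 to 20.2), beside 22.1% of all transcripts. In G418 A it was seen on 453 members (74.0%, 70.4 to 77.3), beside 75.9% of all transcripts. By signal the G418 share was 77.0% of UAAC (72.1 to 81.3) and 70.7% of UAAU (65.3 to 75.7). The members' interval held the background share in Untreated A and G418 A and lay below it in Untreated B. The RRTS in G418 exceeded both untreated values on 421 members, against 72.0% of all transcripts (68.8% of members). No readthrough read was found on 141 members in any library, against 21.0% of all transcripts (23.04% of members). At least 1 was found in both untreated libraries on 54 members, against 11.5% of all transcripts (8.82% of members).

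The reads expected on a transcript limited what could be seen. Of the UAAC transcripts, 30 of 66 with fewer than 5 expected reads in G418 A had a readthrough read, against 76 of 83 with at least 50. For UAAU the counts were 24 of 62 and 63 of 68. Among the transcripts with at least 50 expected reads the median RRTS in G418 A was 17.7% for UAAC (quartiles 8.82% and 31.7%) and 9.51% for UAAU (quartiles 4.44% and 17.9%). An RRTS above 100% in G418 A was found on 43 members, against 7.36% of all transcripts (7.03% of members), and 37 of the 43 had fewer than 10 expected reads. In 5 members (CDC27, KLHL5, MTR, SEC24D and ZNF155) the whole counting interval lay above 100%, against 1.49% of all transcripts (0.817% of members). CDC27, a subunit of the anaphase-promoting complex, had 1, 0 and 36 readthrough reads, and an RRTS of 277% (194 to 383) in G418 A where 13.0 reads were expected. KLHL5, a kelch-repeat protein, had 11 reads in that library and an RRTS of 884%, with a lower bound of 441%. CKMT1B, a mitochondrial creatine kinase, had 3 reads where 1.18 were expected (RRTS 254%). CKMT1B and its near-identical copy CKMT1A cannot be told apart with certainty.

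The next question was how these signals compared with the other stop signals. UAA followed by a pyrimidine had a higher RRTS in G418 A than UAA followed by a purine (1032 transcripts), with a pooled RRTS of 16.9% against 9.97% (9.76 to 10.2). The Mann-Whitney probability was 0.606 (permutation test, adjusted p = 3e-05, built from the smallest p that 100000 resamples can give). The quasi-Poisson ratio was 1.65 (1.18 to 2.29), with an adjusted p of 0.00936. In untreated cells this order was not seen. The probability was 0.501 in Untreated A (permutation test, adjusted p = 0.930) and 0.469 in Untreated B (adjusted p = 0.00625), where the pyrimidine group was the lower. When transcripts with an RRTS of 0 were left out, the value in Untreated B turned to 0.544 (permutation test, adjusted p = 0.195). The quasi-Poisson ratio there was 0.959, with an adjusted p of 0.841.

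With the same base after the stop, UAAC had a lower RRTS than UGAC in every library. Their pooled RRTS were 1.19% and 4.49% in Untreated A, 1.05% and 3.30% in Untreated B, and 20.2% and 41.8% in G418 A. The probability that UAAC was the higher was 0.423, 0.418 and 0.369, each with an adjusted p of 3e-05 (Mann-Whitney permutation tests, adjusted over 12). UAAU was below UGAU in G418 A, at 13.0% against 36.8% and a probability of 0.342 (permutation test, adjusted p = 3e-05). In Untreated A and Untreated B the UAAU against UGAU probabilities were 0.499 and 0.483 (permutation tests, adjusted p = 0.956 and 0.512).

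No difference between the members and UAG stops passed the test in G418. UAGC had a pooled RRTS of 26.4% (25.6 to 27.2) against 20.2% for UAAC, with a probability of 0.499 (permutation test, adjusted p = 0.956) and a quasi-Poisson ratio of UAAC over UAGC of 0.767 (0.523 to 1.13). UAGU had 13.7% (13.0 to 14.4) against 13.0% for UAAU, with a probability of 0.502 (permutation test, adjusted p = 0.956) and a ratio of 0.948 (0.573 to 1.57). These intervals allow differences in either direction. UAAU exceeded UAGU in Untreated A (probability 0.547, permutation test, adjusted p = 0.0480), a call that was lost in each of the 7 alternatives tried, with adjusted p-values from 0.0609 to 0.911.

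**Figure D2:**
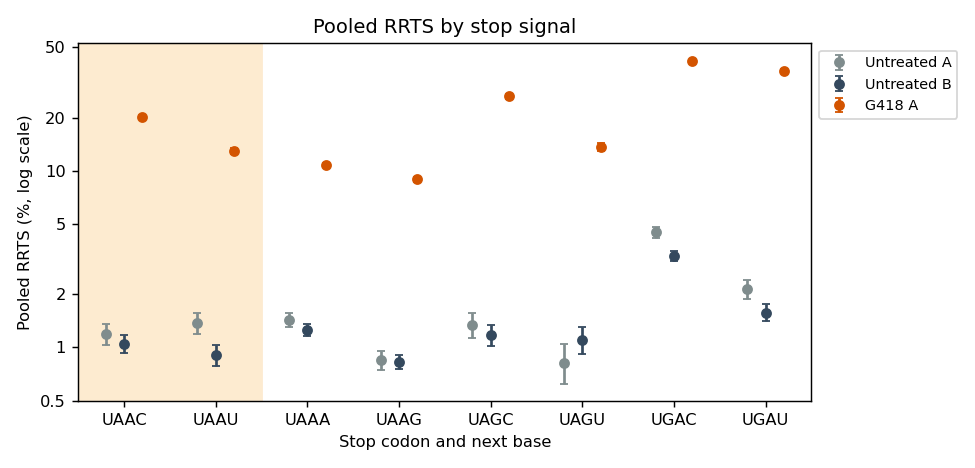
Pooled RRTS in percent (vertical log axis) of 8 stop signals, each the stop codon and the next base (horizontal axis), in Untreated A, Untreated B and G418 A, with exact Poisson 95% intervals. The shaded UAAC and UAAU points in G418 A (20.2% and 13.0%) lie above UAAA and UAAG and below UGAC and UGAU.

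The bases beside the stop signal were not part of the rule. At +5, UAAC members had A in 94, C in 87, G in 15 and U in 112 transcripts. G was at +5 of 4.87% of UAAC members and 27.0% of all matched transcripts. In G418 A the pooled RRTS of UAAC was 14.8% (13.9 to 15.6) with A, 16.9% (15.8 to 18.1) with C, 17.7% (14.9 to 20.9) with G and 27.4% (26.1 to 28.8) with U. The medians were 19.1%, 11.6%, 11.3% and 28.6% in the same order, so U was the highest by either measure. The pooled value with A includes RPL37A, the UAAC member with the most expected reads, on which almost none were found. A pooled value can thus rest largely on a single transcript, which its counting interval does not show. A Kruskal-Wallis permutation test gave an adjusted p of 0.0303 over 9 tests (H = 12.5). Over transcripts averaging 20 CDS reads or more, the Kruskal-Wallis permutation test gave an adjusted p of 0.0664.

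For UAAU members the +5 base was A in 30, C in 71, G in 74 and U in 113 transcripts. Their pooled RRTS in G418 A was 32.3% (27.9 to 37.2) with A, 12.1% (11.0 to 13.3) with C, 7.76% (7.12 to 8.43) with G and 19.8% (18.6 to 21.1) with U. The pooled value with G includes RPS24, the UAAU member with the most expected reads, on which none was found. The medians were closer, at 24.4%, 8.14%, 10.4% and 13.1%, and the Kruskal-Wallis permutation test did not pass (adjusted p = 0.350). In the untreated libraries the +5 base gave adjusted p-values of 0.350 and 0.455 for UAAC and 0.350 and 0.924 for UAAU in the same permutation test.

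At position -1, the last base of the codon before the stop, the members had A in 147, C in 136, G in 149 and U in 164 transcripts. Their pooled RRTS in G418 A was 13.0% (12.3 to 13.6) with A, 15.5% (14.8 to 16.2) with C, 13.5% (12.6 to 14.5) with G and 27.3% (26.1 to 28.5) with U. The medians were 18.3%, 11.4%, 11.9% and 21.6%. Here the pooled value with A includes RPL37A, and that with C includes RPS24. The Kruskal-Wallis permutation test gave an adjusted p of 0.0303 (H = 12.1). It gave 0.0929 over transcripts averaging 500 CDS reads or more. The untreated adjusted p-values were 0.455 and 0.805 by the same permutation test.

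Longer motifs after the stop were rare. CUAG, read from the base after the stop codon on the mRNA strand, stood at 2 of 596 members (0.336%) and at 0.151% of all matched transcripts. The members with CUAG were LYPLA2, a thioesterase that removes palmitate from proteins, with 0, 0 and 7 readthrough reads (RRTS 17.2% in G418 A, 6.90 to 35.4), and CEP192, a centrosomal scaffold, with none in any library where 1.03 were expected in G418 A. CAAUUA, known from plant viral readthrough, stood at none of the members and at none of the 5299 matched transcripts. Both motifs begin with C at the base after the stop codon, which the rule set to C or U. UAAU members therefore cannot carry them, and the CUAG shares of members and all transcripts cannot be compared directly. Positions +5 to +15 averaged 45.7% G and C in the members and 51.9% in all matched transcripts. UAA followed by a purine had 44.5%, so the low value was not particular to the members.

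Readthrough regions of the members ran from 18 to 540 nt, with a median of 54 nt. The median was 57 nt for UAA followed by a purine and 66 nt for all transcripts. Pooled RRTS was lower in longer regions. In the G418 library it was 32.4% (30.5 to 34.3) for the 197 members with regions of 18 to 36 nt, 24.6% (23.6 to 25.6) for the 208 with 39 to 81 nt and 11.8% (11.4 to 12.3) for the 207 with 84 to 540 nt. The same order held in Untreated A (3.49%, 1.85% and 0.747%) and in Untreated B (1.78%, 1.75% and 0.573%). The medians in G418 A were closer together, at 16.7%, 18.5% and 12.7%, and did not follow that order.

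Across the 151 members with at least 50 expected reads in G418 A, RRTS and region length were correlated at r = -0.25 (Pearson) and rho = -0.20 (Spearman). RRTS and CDS density in RPKM had 0.0015 and 0.10 over the same members, and both share the CDS density. Over the 453 members with a readthrough read in G418 A, log2 RRTS had -0.30 and -0.26 with log2 CDS RPKM, -0.42 and -0.43 with log2 region length, and 0.060 and 0.061 with log2 3′UTR length. Leaving out members without a read sets a lower limit on RRTS. That limit falls with region length and CDS density, which favours negative values. With zeros kept over all 612 members, RRTS and region length had -0.17 and -0.070. Between the untreated libraries log2 RRTS gave r = 0.77 and rho = 0.78 across the 54 members detected in both. These correlations run across transcripts of the same libraries, which are not independent, and describe the tables.

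Among members with at least 50 readthrough reads in G418 A, the highest density beyond the stop was 88.9% of that on the coding sequence. TPT1, the translationally controlled tumour protein, had an RRTS of 2.63% in Untreated A (4 reads), 5.83% in Untreated B (12 reads) and 88.9% in G418 A (174 reads, 76.2 to 103). RPL18, a protein of the large ribosomal subunit, had 5.08% (6 reads), 4.50% (10 reads) and 82.8% (171 reads, 70.8 to 96.1). In both genes the G418 value lay far outside the counting intervals of the untreated values.

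MTHFD2, a mitochondrial enzyme of folate metabolism, had 5.12%, 0 and 76.8% (83 reads in G418 A, 61.2 to 95.2). TMEM106C, a transmembrane protein, had 11.0%, 2.04% and 72.3% (58 reads, 54.9 to 93.4). POLR2C, a subunit of RNA polymerase II, had no readthrough read in either untreated library and 79 reads in G418 A, an RRTS of 49.6% (39.3 to 61.8). HIST1H2AG, a replication-dependent histone H2A gene, had 4.26%, 1.86% and 53.2% with 205 reads in G418 A, the most of any UAAC member. Its reads can be shared with other H2A genes, so its value is uncertain.

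Among the UAAU members with at least 50 readthrough reads TUBA1B, an alpha-tubulin, was highest at 3.02%, 2.69% and 53.9%, with 208 reads in G418 A (46.8 to 61.8). Its reads can be shared with other tubulin genes. CBX3, a heterochromatin protein that binds methylated histone H3, had 1.54%, 1.43% and 47.9% (89 reads, 38.5 to 59.0). PPIF, the mitochondrial cyclophilin, had 0.521%, 0 and 44.6% (78 reads, 35.2 to 55.6). RPL3, a large-subunit ribosomal protein, had 0, 5.73% and 41.2% (57 reads, 31.2 to 53.3). DDX21, a nucleolar RNA helicase, had 1.64%, 0 and 39.5% (57 reads, 29.9 to 51.1). UBB, a polyubiquitin gene, had 0.394%, 0.450% and 39.2% (32.7 to 46.7).

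The members described here were chosen by their G418 values, so their order against the untreated libraries is no independent observation. HIST1H4E, a histone H4 gene, was among the 4 UAAU members with the most reads, at 107, but had an RRTS of only 7.29% (5.97 to 8.81), since 1468 reads were expected. In all, 19 UAAC and 8 UAAU members had at least 50 readthrough reads in G418 A. The 10 members with the most reads held 22.5% of the members' readthrough reads in that library.

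**Figure D3:**
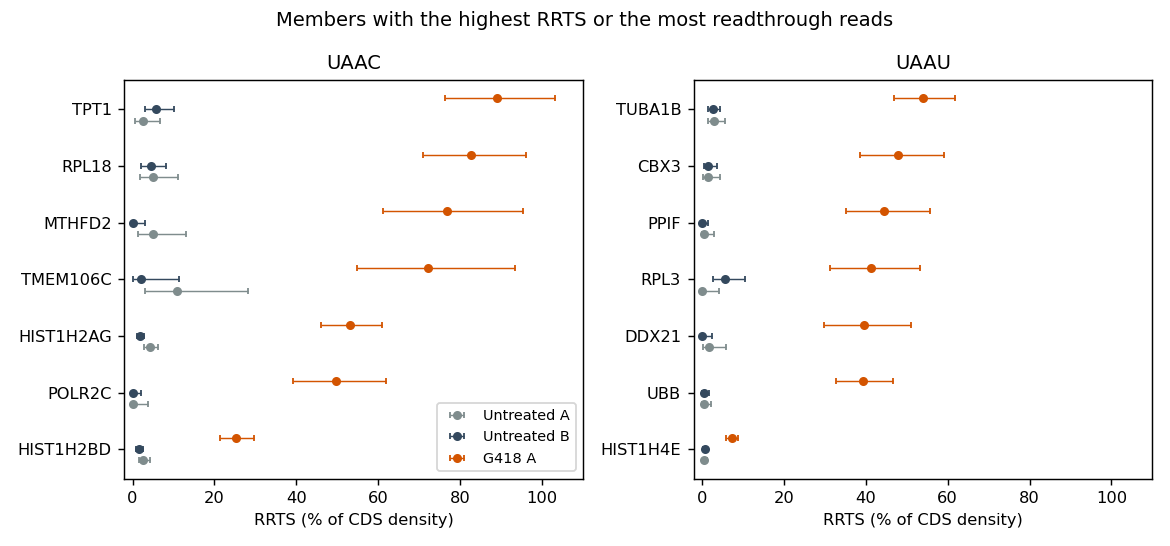
RRTS in percent of the CDS density (horizontal axis) of the UAAC and UAAU members with the highest RRTS or the most readthrough reads in G418 A (vertical axis, by gene), in Untreated A, Untreated B and G418 A with exact Poisson 95% intervals. In every gene drawn the G418 interval lies to the right of both untreated intervals, from 7.29% in HIST1H4E to 88.9% in TPT1.

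At the other end stood members with many expected reads and almost no readthrough reads under G418. The abundance of the scored transcripts themselves was not measured. On RPL37A, a large-subunit ribosomal protein, 3468 reads were expected in G418 A and 2 were found, an RRTS of 0.0577% (0.00698 to 0.208), beside 1 read and none in the untreated libraries. On RPS24, a small-subunit protein, 3005 reads were expected and none was found (upper bound 0.123%). These were the members with the most expected reads of each signal.

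ATP5F1E, a subunit of ATP synthase, had 0 of 526 expected reads (upper bound 0.702%), and RPS3, a small-subunit protein that also acts in DNA repair, had 0 of 343 (upper bound 1.07%). EEF1E1, a component of the multi-tRNA synthetase complex, had 0 of 172 (upper bound 2.15%). NELFCD, a subunit of the negative elongation factor of RNA polymerase II, had 2 reads of 163 expected, and ELOB, the elongin B subunit of ubiquitin ligases, had 1 read. Of the members with at least 50 expected reads, 11 of 83 UAAC and 10 of 68 UAAU had an RRTS under 2% in G418 A, against 9.06% of the 1390 transcripts of any stop signal with as many expected reads.

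The transcript on which a gene was scored moved with this pattern. The authors scored 1 transcript per gene, among those ending at its 3′-most stop codon. Of the matched members, 427 of 596 were the MANE Select transcript, the reference isoform agreed between annotation groups. Among these, 7 of 108 members with at least 50 expected reads had an RRTS under 2% in G418 A, against 14 of 39 of the members on another transcript. Among all matched transcripts the counts were 34 of 949 and 87 of 398, in the same order. RPL37A, RPS3, EEF1E1, RPS24, ATP5F1E, NELFCD and ELOB were all scored on another transcript. Its part in the result was not tested.

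The pooled RRTS in G418 A was 21.5% (20.9 to 22.1) on the 427 MANE Select members and 9.17% (8.68 to 9.67) on the other 169. For UAAC the pair of values was 24.4% and 10.3%, and for UAAU 17.6% and 7.97%. All transcripts showed the same order, at 25.6% and 16.4%. The pooled values on other transcripts include RPL37A and RPS24, where the most reads were expected and almost none were found. The counting intervals do not show this. The median RRTS in G418 A was 16.0% on MANE Select members and 10.3% on the others. By signal the medians were 18.3% and 17.3% for UAAC, and 13.4% and 6.58% for UAAU. On MANE Select members alone the UAAC over UAAU probability was 0.559 (permutation test, adjusted p = 0.104), and the -1 base gave an adjusted p of 0.145 in the Kruskal-Wallis permutation test. UAA followed by a pyrimidine stayed above UAA followed by a purine there (probability 0.616, permutation test, adjusted p = 3e-05).

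EIF5A and EIF5AL1 carry the same 15 bases before a UAAC stop. EIF5A, the translation factor that helps ribosomes over poorly reacting residues, had 2, 6 and 113 readthrough reads, and an RRTS of 0.441%, 0.840% and 18.6% (15.3 to 22.3). EIF5AL1, a gene without introns that resembles EIF5A, had no readthrough read in any library, where 477 were expected in G418 A (upper bound 0.773%). CDS reads of such near-identical genes can be credited to either copy, so the value of EIF5AL1 is uncertain. HNRNPA1 and HNRNPA1L2 form another such pair at a UAAU stop, with 13 and 0 reads in G418 A where 75.6 and 7.57 were expected.

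**Figure D4:**
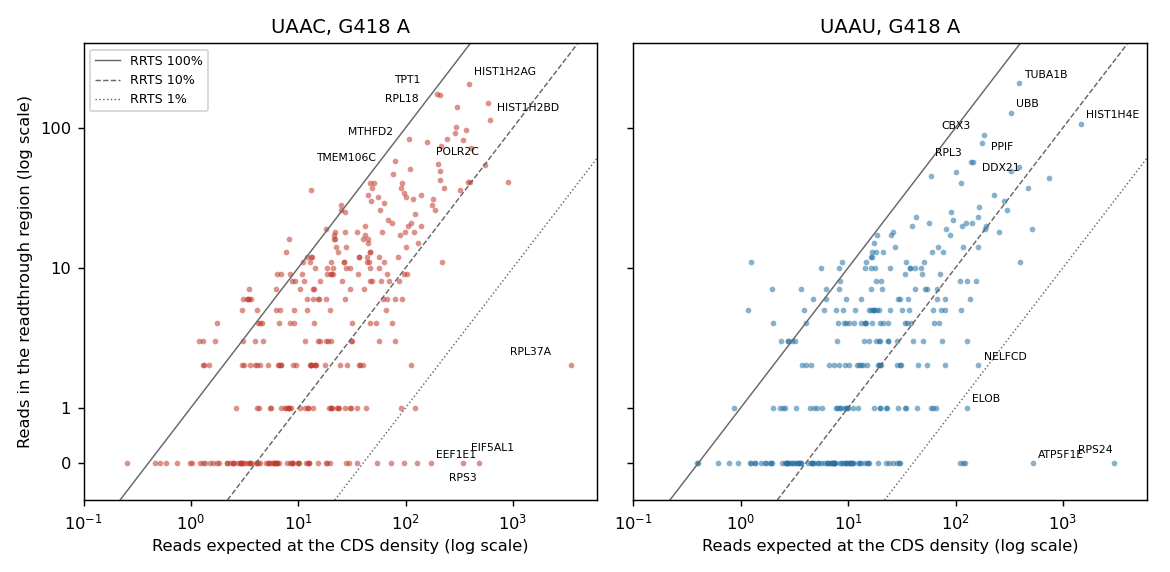
Readthrough reads found (vertical log axis, with 0 drawn below 1) against reads expected at the CDS density (horizontal log axis) in G418 A, 1 point per UAAC or UAAU transcript, with lines at an RRTS of 100%, 10% and 1%. RPL37A (2 of 3468 expected) and RPS24 (0 of 3005) lie far below the 1% line, and TPT1 and RPL18 close to the 100% line.

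A small set of members had reads between the NTC and the 3′TC without the drug. The reading frame of these reads was not examined. In the study, 3′UTR reads of untreated cells no longer kept the frame of the CDS, so they need not come from readthrough. In 20 members each untreated library had at least 3 readthrough reads, against 4.63% of all transcripts (3.27% of members). PHIP, which binds the insulin receptor substrate and modified histones, had an RRTS of 22.8% (3 reads), 26.3% (5 reads) and 85.4% (11 reads, 42.6 to 153) in Untreated A, Untreated B and G418 A. ATP5MPL, a small subunit of ATP synthase, had 5.07% (17 reads), 6.01% (27 reads) and 34.2% (101 reads, 27.9 to 41.6). The G418 interval of ATP5MPL lay above both untreated intervals, and that of PHIP overlapped them. Of the 20 members, 14 had a G418 interval above both untreated intervals.

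Others of this kind showed no such separation. TRMT10C, a subunit of mitochondrial RNase P, had 17.7%, 21.3% and 19.0%, from 3, 5 and 4 reads. GUF1, a mitochondrial elongation factor GTPase, had 54.6%, 40.3% and 0, from 3, 5 and 0 reads, with an upper bound of 35.4% in G418 A. TMEM248, a membrane protein, had 70.9%, 24.8% and 16.6%, from 6, 3 and 3 reads. Only 4 members (DEPDC1, GUF1, SERP1 and TMEM248) were lower in G418 A than in both untreated libraries, against 0.515% of all transcripts (0.654% of members), and their intervals were wide.

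Members of 10 groups of genes were then set beside each other. Of 6 cytosolic ribosomal protein members, 3 exceeded both untreated values in G418 A, and the group's pooled RRTS was 3.16% (2.76 to 3.59), where RPL37A and RPS24 held most of the expected reads. All 4 members among mitochondrial ribosomal proteins were UAAC and all 4 exceeded the untreated values, with a pooled RRTS of 29.2% (23.9 to 35.2). MRPL3 had 0, 0 and 47 reads (RRTS 62.2% in G418 A), MRPS5 0, 0 and 22 reads (32.4%), and MRPL17 3, 0 and 28 reads (15.8%).

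All 4 proteasome members exceeded both untreated values, at 20.9% pooled (17.1 to 25.3). PSMB2, a subunit of the catalytic core, had 1.63%, 5.15% and 23.6%, PSMA3, an outer-ring subunit, had 6.87%, 2.40% and 23.5%, and PSMB3 had 0, 0 and 11.6%. In oxidative phosphorylation 4 of 6 members exceeded the untreated values, at 8.44% pooled (7.13 to 9.92), with UQCR11 of complex III at 0.257%, 0 and 3.68%. Of 7 translation factor members 5 did, at 10.5% pooled (8.88 to 12.3).

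Of 9 spliceosome and hnRNP members 8 exceeded both untreated values, at 28.1% pooled (24.1 to 32.5) and a median of 57.4%. SNRPD1, a core Sm protein, had 0.389%, 3.45% and 15.03%, and HNRNPH1, a splicing regulator, had 0, 0 and 5.72%. All 3 chaperone members did, at 32.0% pooled (24.0 to 41.8), with HSP90AA1, the inducible cytosolic HSP90, at 10.1%, 1.52% and 47.5%. Of 10 ZNF zinc finger members 5 did, at 53.0% pooled (38.5 to 71.2) and a median of 19.0%. ZNF460 had 0, 0 and 26 readthrough reads (RRTS 104% under G418), of the group's 44 in G418 A.

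All 3 histone members exceeded both untreated values, at 18.9% pooled (17.2 to 20.7). Of 9 small GTPase members 6 did, at 8.93% pooled (7.56 to 10.5). RAB21, an endosomal GTPase, had 1.17%, 0 and 17.8%, ARF5, a Golgi GTPase, had 0, 0.623% and 4.62%, and ARL1, also of the Golgi, had 3.00%, 0 and 0. The groups are small, and their counts stand beside the 72.0% of all transcripts given above. MANE Select transcripts were 4 of 4 mitochondrial ribosomal, 4 of 4 proteasome, 7 of 9 spliceosome and 7 of 9 small GTPase members. They were 2 of 3 chaperone, 6 of 10 ZNF, 3 of 7 translation factor and 2 of 6 cytosolic ribosomal members. In oxidative phosphorylation they were 1 of 6, and no histone member was matched to one. The part of the scored transcript in the group values was not tested.

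Where the ribosomes that passed the stop codon went on to was read from the density past the 3′TC, on the 594 members with at least 30 nt of 3′UTR beyond it. The 3′UTRs of all 612 members had a median length of 1189 nt and a median of 21 in-frame stop codons. Density past the 3′TC was taken over the whole rest of the 3′UTR. That density was 0.545% (0.528 to 0.562) of the CDS density under G418, beside 0.139% (0.129 to 0.148) and 0.114% (0.107 to 0.121) in Untreated A and B. It was 4.32-fold higher in G418 than the untreated mean of 0.126% ± 0.0175 (SD, n = 2). Set against the density before the 3′TC, it was 11.2% and 12.1% in the untreated libraries and 3.34% in G418 A. Since further in-frame stop codons lie in the span, these shares do not measure passage of the 3′TC itself. UAAC and UAAU had similar densities past the 3′TC in G418 A (0.529% and 0.560%), although before it they differed (19.5% and 12.8%).

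The density past the 3′TC differed with the stop codon found there. In G418 A it was 0.368% (0.346 to 0.392) for the 219 members whose 3′TC was UAA, 0.467% (0.436 to 0.5001) for the 141 with UAG and 0.864% (0.828 to 0.902) for the 219 with UGA. The untreated values were 0.126% and 0.115% with UAA, 0.142% and 0.107% with UAG and 0.178% and 0.144% with UGA. As a share of the density before the 3′TC, the G418 values over the rest of the 3′UTR were 2.24%, 3.83% and 4.18%. These are pooled values with counting intervals and were given no test.

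**Figure D5:**
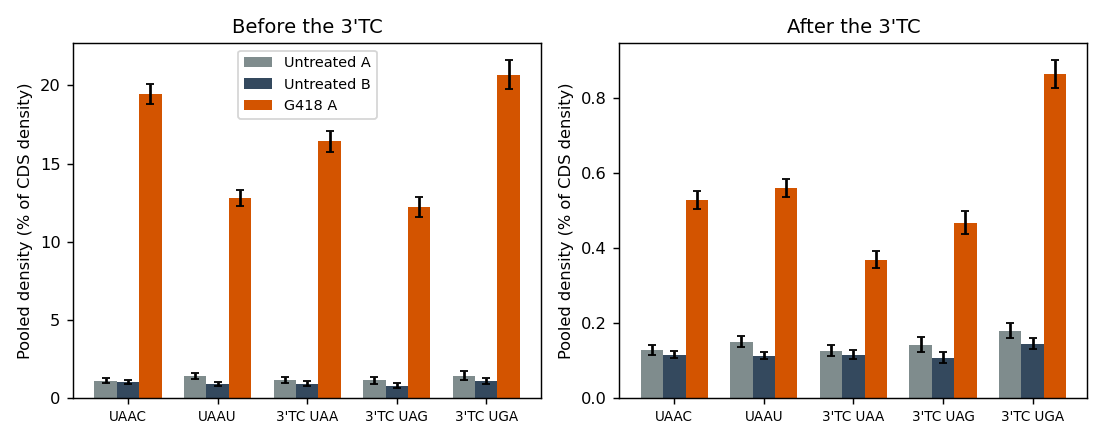
Pooled density in percent of the CDS density (vertical axes, which differ in scale) before and after the 3′TC in Untreated A, Untreated B and G418 A, for UAAC and UAAU members and for all members by the stop codon at the 3′TC (horizontal axis), with exact Poisson 95% intervals. After the 3′TC, over the whole rest of the 3′UTR, the G418 bar is lowest for UAA (0.368%) and highest for UGA (0.864%).

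The density on the coding sequence of the members changed little. The median log2 ratio of the G418 RPKM to the untreated mean was 0.06 for the members and 0.07 for all transcripts. At least 2-fold higher in G418 A were 5 members, against 1.08% of all transcripts (0.817% of members), and without Untreated A or Untreated B the count was 8 or 10. At least 2-fold lower was 1 member, against 0.0919% of all transcripts (0.163% of members), a count of 2 without Untreated A and 0 without Untreated B. Between the untreated libraries 1 member was at least 2-fold higher in B and 2 were at least 2-fold lower.

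The 3 largest rises in CDS density started from 13.2 to 20.4 RPKM in the untreated libraries. TMEM189, which makes the vinyl ether bond of plasmalogens, had 17.9, 14.6 and 37.5 RPKM (log2 ratio 1.20). AGPAT3, an acyltransferase of phospholipid synthesis, had 20.4, 19.9 and 43.2 RPKM (log2 ratio 1.10), and ZDHHC2, a palmitoyltransferase, had 13.2, 13.3 and 28.3 RPKM (log2 ratio 1.10). In each the untreated libraries lay close together. These members were chosen by their rise, so their order against G418 A is no independent observation.

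Among the largest falls were HIST1H2AG, with 1198, 1694 and 614 RPKM (log2 ratio -1.23), and ANK3, which anchors membrane proteins to the cytoskeleton, with 2.48, 3.37 and 1.67 RPKM (log2 ratio -0.81). Both were chosen by their fall, so the higher values of the untreated libraries are no independent observation. With 1 G418 library these changes in CDS density carry no test.

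At the edge of the rule, DHRS13, just inside it, had 1, 0 and 0 readthrough reads in Untreated A, Untreated B and G418 A, and GLRX, just outside, had none.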

How the data were processed

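Ribosome profiling was measured in 3 HEK293T libraries grouped by their treatment labels. The submitters' processing notes name CASAVA 1.8 and STAR. Per the study's methods, the authors collapsed duplicates by molecular identifier, aligned reads to hg38, and assigned fragments to the ribosomal A site on 1 transcript per gene. The authors deposited RPM values of the CDS and 3′UTR, RPKM densities (RPM per kilobase), whole-number counts of the same regions, the lengths of the regions, and ratios such as RRTS. The deposited CDS length lacks 33 nt of the annotated CDS, and the first 6 nt after the stop codon are left out of 3′UTR values. Every RPM value was a whole multiple (tolerance 0.01) of the value of 1 read, and reads recovered this way were used. In Untreated A the deposited CDS count was 1 lower than the recovered reads on 9080 of 9099 transcripts.

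Rank tests (Mann-Whitney, Kruskal-Wallis) ran within each library over transcripts as permutation tests with 100000 resamples and Benjamini-Hochberg adjustment over 3, 3, 12 and 9 tests. These p-values measure the spread over transcripts of 1 library, not over cultures. A quasi-Poisson fit over all 5438 transcripts with standard errors from the spread within each stop signal was an alternative, as were other minimums of CDS reads and region length, leaving out zeros or the top 1% of transcripts, 1 untreated library at a time, and, chosen after seeing the data, MANE Select transcripts only and genes with near-identical copies left out. The tests were tested on simulated data. Software was Python 3.11.15, scipy 1.17.1, numpy 2.4.6 and pandas 2.3.3.

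Members, gene groups and tests were chosen with earlier results of these data known. Genes were named by a rule: per signal, the 6 highest RRTS in G418 A with at least 50 readthrough reads, the 4 with most readthrough reads, and the 4 with most expected reads among those under 2%; over both signals, the 6 with the highest lower untreated RRTS at 3 or more reads in each untreated library; the 3 largest rises and falls in CDS density; and, per gene group, the 3 with most expected reads. A gene that the rule named is not reported here. CDC27, KLHL5, MTR, SEC24D, ZNF155, CKMT1A, CKMT1B, HNRNPA1L2, LYPLA2, CEP192, DEPDC1, SERP1 and the edge genes fell outside it and were named after their values were seen.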

Additional observations from a re-analysis of the deposited data

How the results depend on the processing

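In G418 A, UAA followed by a pyrimidine stayed above UAA followed by a purine, UAAC below UGAC and UAAU below UGAU in each of the 7 alternatives tried. Pooled RRTS in G418 A of all members, UAAC and UAAU was 15.8%, 18.9% and 12.3% at 500 CDS reads, 13.9%, 17.0% and 10.1% with regions of at least 60 nt, 15.3%, 18.1% and 12.1% without the top 1% of transcripts, 21.5%, 24.4% and 17.6% on MANE Select transcripts, and 19.7%, 24.1% and 14.4% without ribosomal protein, histone, tubulin and ubiquitin genes and EIF5AL1. The untreated mean of UAAC was 1.35% at 20 CDS reads, 0.998% at 60 nt and 0.936% without the top 1%.

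The share of members with readthrough in G418 A, for all, UAAC and UAAU, was 85.3%, 86.4% and 84.2% at 500 CDS reads, 62.2%, 64.3% and 59.8% at 20, and 83.0%, 86.5% and 78.6% at 60 nt. It was 78.0% for all and 75.8% for UAAU on MANE Select transcripts. The untreated shares were 29.2%, 28.2% and 30.2% at 500 CDS reads. They were 15.7% for all and 14.6% for UAAC at 20, and 24.7% for all and 23.01% for UAAC at 60 nt.

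The order of UAAC over UAAU in G418 A fell short of the threshold at 500 CDS reads (0.577) and on MANE Select transcripts (0.559). It also fell short in the quasi-Poisson fit (ratio 1.56). It passed at 20 CDS reads (0.551), at 60 nt (0.606), without the gene families (0.579) and without zeros (0.580). In Untreated A UAAC was the lower at 20 CDS reads (0.472, permutation test, adjusted p = 0.0488). UAAU over UAGU in Untreated A fell short throughout (0.551 at 500 CDS reads, 0.532 at 20, 0.565 at 60 nt, 0.549 on MANE Select transcripts, 0.545 without the gene families, 0.527 without zeros, ratio 1.69). Pyrimidine over purine in Untreated B turned to 0.544 without zeros and fell short in the quasi-Poisson fit (ratio 0.959). The Kruskal-Wallis H of the -1 base in G418 A fell short at 9.26 (500 CDS reads) and 7.90 (MANE Select), that of +5 in UAAC at 9.51 (20 CDS reads), and that of +5 in UAAU in Untreated A passed at 10.0 (60 nt). Fewer transcripts entered at 500 CDS reads and on MANE Select transcripts, and otherwise the cause was not tested.

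The density past the 3′TC in G418 A was 2.92% of that before it without the top 1%. Members at least 2-fold higher in CDS density numbered 19 at 20 CDS reads and 1 at 500, and at least 2-fold lower 5 at 20. Leaving out 1 untreated library gave 8 to 10 higher and 0 to 2 lower. Without Untreated A the count was 8 and without Untreated B 10. No paired analysis was possible because the groups share a single replicate letter. Few expected reads per transcript, 1 G418 library and the choice of transcript limit these results.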
